A study of Danio rerio with 6 samples.

Results

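The Notch pathway and the Hairy-related genes were examined in bulk RNA-seq of whole zebrafish embryos at 50% epiboly, the stage at which gastrulation begins. The genes were chosen by symbol: all Notch, Delta and Jagged genes, the rbpj genes, mib1, lfng and numb, and all her, hes, hey and helt genes, which encode repressors of the Hairy family. The rule found 45 of the 32266 genes listed, made up of 9 ligands, 5 receptors, 3 genes that modify ligand or receptor (MIB1, LFNG and NUMB), 2 RBPJ genes and 26 Hairy-related genes. Symbols are spelled as the sources give them, so that some zebrafish genes carry a human-style name, and identifiers are added where a symbol alone would be ambiguous.

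The comparison set 3 libraries of MZsmad4a embryos against 3 libraries of WT embryos, each made from a pool of 25 embryos of the Tubingen (TU) strain. MZsmad4a embryos carried a frameshifting CRISPR/Cas9 deletion in smad4a and came from homozygous mutant mothers and fathers, so that both the maternal and the zygotic supply of intact smad4a was missing. WT embryos were of the same strain without the mutation. In other experiments the study used embryos of heterozygous mothers and homozygous fathers as controls for embryo background. The libraries include none of these, so the mutation and the background of the mutant line cannot be told apart here. Smad4 is described as the common partner of the BMP and Nodal arms in transcription. The study reports that at this stage the mutants kept Nodal targets near WT levels, whereas most known BMP targets were lower. The comparison asks which Notch pathway transcripts differ when smad4a is lost.

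Notch signalling passes between touching cells. A Delta or Jagged ligand on one cell leads to cleavage of a Notch receptor on its neighbour, and the freed intracellular part of the receptor enters the nucleus and joins the DNA-binding protein RBPJ. Hairy-related repressors of the basic helix-loop-helix (bHLH) family are the best known targets, and in the zebrafish embryo several of them act in the segmentation clock of the presomitic mesoderm and in the timing of neurogenesis.

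Library totals were 18138714 to 19900859 expected counts in MZsmad4a and 9807865 to 20833491 in WT, the shallowest library being WT replicate 1. At these depths 3 counts, taken as the smallest level that could be seen, amounted to 0.158 to 0.173 CPM in MZsmad4a libraries and 0.143 to 0.283 CPM in WT libraries. CPM, the count scaled to the TMM-adjusted library size, serves to compare libraries, whereas TPM, which is per transcript length, serves to compare genes. These levels cover counting error only. The mutated gene smad4a (ENSDARG00000075226) had 13.1, 15.3 and 14.6 CPM in the MZsmad4a libraries, against 54.7, 62.3 and 60.8 CPM in the WT libraries, so each library lay on the side of its label (log2 fold change -2.05, standard error 0.13, adjusted p = 0.000546).

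Of the 45 genes, 30 had enough counts to be tested among 15720 genes. The other 15 reached at most 19 counts in any library, and HELT and notchl were listed at 0 in all 6. Each role in the pathway had expressed members at this stage. Per length, 15 genes had a mean level of at least 10 TPM over the 6 libraries, and 19 had a mean under 1 TPM. The receptor NOTCH1 (ENSDARG00000103554), hes6, LFNG, MIB1 and HES3 had the highest means, whereas the her4 copies, the HES2 genes, heyl and dll4 were near the limit of detection.

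**Figure D1:**
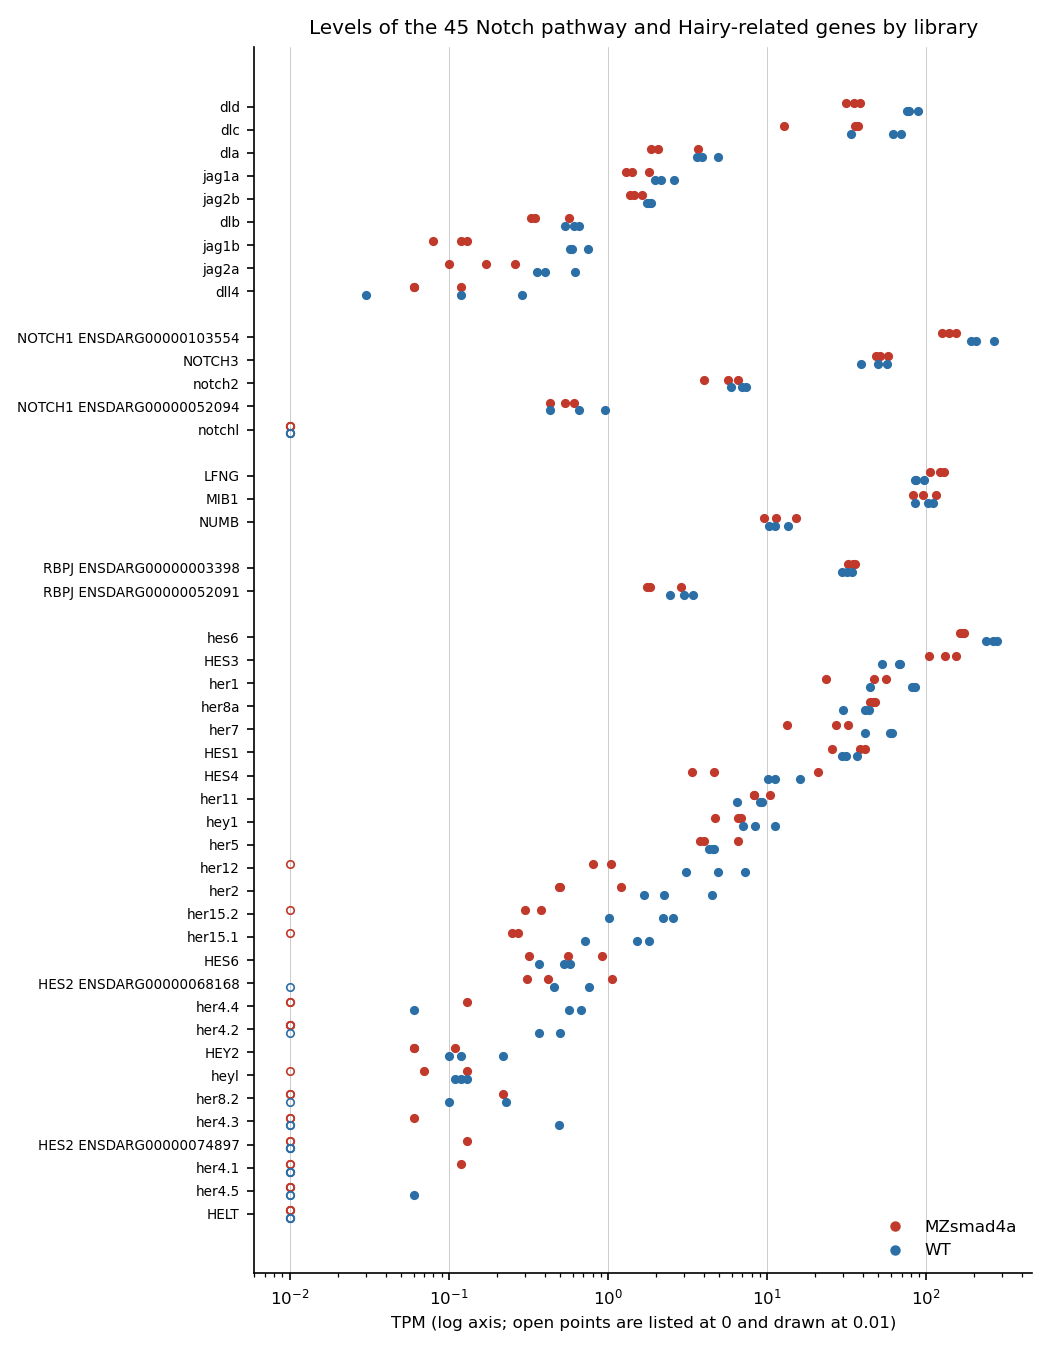
Level of each of the 45 genes in TPM on a log axis, with 1 point per library (red, MZsmad4a; blue, WT); blocks from top to bottom are ligands, receptors, processing genes, RBPJ genes and Hairy-related genes, each ordered by mean level. Open points are listed at 0. The ligands dld and dlc stand well above the other ligands, and the red and blue points of dld, jag1b, hes6 and HES3 do not overlap.

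At an adjusted p under 0.01 (quasi-likelihood test of edgeR, adjusted by Benjamini-Hochberg, which is the source of every adjusted p unless another test is named), 1 member of the group was called lower in MZsmad4a, the ligand dld, and 0 were called higher. Over all tested genes 0.712% were called, 0.49% lower and 0.223% higher. At an adjusted p under 0.05 the calls were 3 lower (dld, jag1b and hes6) and 2 higher (HES3 and LFNG), against 2.93% of all tested genes, 1.67% lower and 1.26% higher. DESeq2, at an adjusted p under 0.01, called 6 of the 30, namely these 5 and her12, against 4.13% of the same 15720 genes. Of the 6, jag1b and her12 came to be among the 30 through WT libraries only. jag1b is also among the 3 lower at 0.05, so these call counts are given as a description.

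Without an adjustment 11 of the 30 genes had a p under 0.05, 8 lower and 3 higher, against 17.5% of all tested genes (8.81% lower and 8.68% higher). The 3 MZsmad4a and 3 WT libraries did not overlap for 13 of the 30 genes, 9 lower and 4 higher, against 23.6% of all tested genes (11.9% lower and 11.8% higher). The log2 fold change was below 0 for 20 of the 30 and for 51.0% of all tested genes. Among the 9 lower genes without overlap, jag1b, her12, her2 and her15.2 were above the level of the count filter in WT libraries only, so they could enter the test only by being higher in WT. Without these 4 genes, a count made after the data were seen, 16 of 26 had a log2 fold change below 0, and 5 lower and 4 higher genes were without overlap. These 5 lower genes still include jag2a, which was above the filter level in all 3 WT libraries but in only 1 MZsmad4a library. The filter asks for 3 libraries, so jag2a also needed WT libraries to pass. So did dlb, 1 of the 16 below 0, which was above the level in 2 WT libraries and 1 MZsmad4a library. These counts are given as a description.

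**Figure D2:**
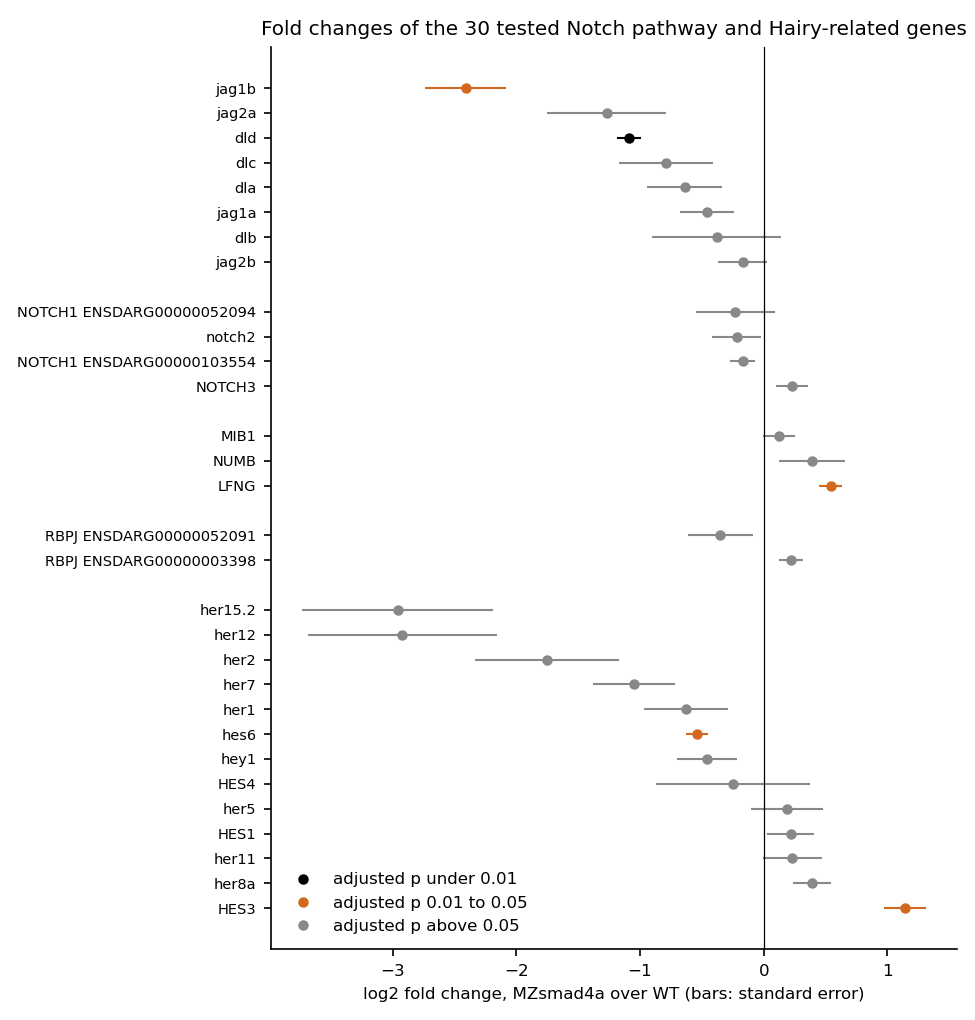
Log2 fold change of MZsmad4a over WT for the 30 tested genes, with bars of 1 standard error; blocks from top to bottom are ligands, receptors, processing genes, RBPJ genes and Hairy-related genes. All 8 ligands lie left of 0, whereas the receptors and RBPJ genes lie near 0 and the Hairy-related genes spread from -2.96 (her15.2) to 1.14 (HES3).

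Among the ligands, dld (ENSDARG00000020219), the DeltaD ligand known in zebrafish from somite formation and neurogenesis, was the gene called lower at 0.01. It had 61.2, 72.0 and 68.9 CPM in MZsmad4a libraries, against 150, 139 and 141 CPM in WT libraries, resting on 1061, 1304 and 1310 counts in MZsmad4a and 1591, 2914 and 2582 counts in WT. The groups were far apart and each was tight, with means of 67.4 ± 5.55 CPM in MZsmad4a and 143 ± 5.88 CPM in WT (SD, n = 3 each). On the log2 scale the fold change came to -1.09, with a standard error of 0.10 and adjusted p = 0.00202. Refits that omitted any 1 library gave log2 fold changes of -1.14 to -1.02, but the call at 0.01 was narrow. The adjusted p was 0.0109 without MZsmad4a replicate 2, 0.0122 without MZsmad4a replicate 3, 0.0107 without WT replicate 1 and 0.0123 without WT replicate 2, so that 0 members were then called. In whole embryos fewer cells with a transcript and less of it per cell cannot be told apart, here and in all that follows.

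The other Delta gene of similar abundance, dlc (ENSDARG00000002336), encodes DeltaC, the ligand that oscillates with the zebrafish segmentation clock. It had 24.6, 66.5 and 63.0 CPM in MZsmad4a libraries, against 108, 102 and 57.3 CPM in WT libraries. The groups overlapped through MZsmad4a replicates 2 and 3 and WT replicate 3, whereas MZsmad4a replicate 1 was far below every other library. dlc gave a log2 fold change of -0.79 with a standard error of 0.38 (adjusted p = 0.33), and of -0.46 without MZsmad4a replicate 1. Thus dld and dlc, which together made up most ligand transcripts, differed in how evenly the libraries of a genotype behaved.

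The Jagged gene jag1b (ENSDARG00000013168) had the most negative fold change of the ligands, but at a very low level. It had 0.346, 0.497 and 0.473 CPM in MZsmad4a libraries, against 2.64, 2.29 and 2.18 CPM in WT libraries, that is 6, 9 and 9 counts in MZsmad4a and 28, 48 and 40 counts in WT. The groups did not overlap, and the fitted change was -2.41 on the log2 scale, with a standard error of 0.33 (adjusted p = 0.0105), short of the threshold of 0.01. It passed 0.05 in all 6 fits with a library left out (adjusted p 0.0319 to 0.0498). However, jag1b was above the level of the count filter in WT libraries only. It could thus be tested only by being higher in WT, and these fits are no separate support. A further low Jagged gene, jag2a (ENSDARG00000014246), had 0.404, 0.221 and 0.631 CPM in MZsmad4a libraries, against 0.755, 0.907 and 1.36 CPM in WT libraries, without overlap (log2 fold change -1.27, standard error 0.48, adjusted p = 0.23).

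The remaining ligands did not pass any threshold. jag1a had 7.27, 5.52 and 5.26 CPM in MZsmad4a libraries, against 7.55, 7.54 and 9.72 CPM in WT libraries, a small gap without overlap (log2 fold change -0.46, adjusted p = 0.321). For dla (DeltaA, a ligand of zebrafish neurogenesis) the values were 8.60, 4.2 and 4.36 CPM in MZsmad4a and 10.1, 8.73 and 7.97 CPM in WT, where MZsmad4a replicate 1 alone reached the WT range (log2 fold change -0.64, adjusted p = 0.326). jag2b and dlb overlapped between genotypes, with log2 fold changes of -0.17 and -0.38, and dll4 was not tested, with 9 counts at most.

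All 8 tested ligands had a log2 fold change below 0. Without jag1b, which passed the filter through WT libraries only, the median of the other 7 was -0.64, against -0.01 over all tested genes. The other 7 still include jag2a and dlb, each above the filter level in only 1 MZsmad4a library, so that both needed WT libraries to be tested. Summed over the 9 ligands, the level was 51.7, 81.3 and 76.6 TPM in MZsmad4a libraries, against 168, 146 and 122 TPM in WT libraries, without overlap (69.9 ± 15.9 TPM in MZsmad4a and 145 ± 23.0 TPM in WT, SD, n = 3 each). The shares of both major ligands in this sum overlapped between genotypes. dld contributed 51.3 ± 8.22% of it in MZsmad4a and 56.1 ± 6.94% in WT, and dlc contributed 39.0 ± 12.4% in MZsmad4a and 36.9 ± 8.06% in WT (SD, n = 3 each). Among the minor ligands the shares did not overlap for jag1b, with 0.157 ± 0.00267% in MZsmad4a and 0.442 ± 0.0363% in WT, nor for jag2b, with 2.18 ± 0.407% in MZsmad4a and 1.28 ± 0.222% in WT (SD, n = 3 each). jag2b itself had 1.48 ± 0.133 TPM in MZsmad4a and 1.82 ± 0.05 TPM in WT (SD, n = 3 each). Its larger share thus came with a smaller ligand sum and not with a higher level. The ligand sum is for the most part a sum of dld and dlc, and it is given without a test.

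**Figure D3:**
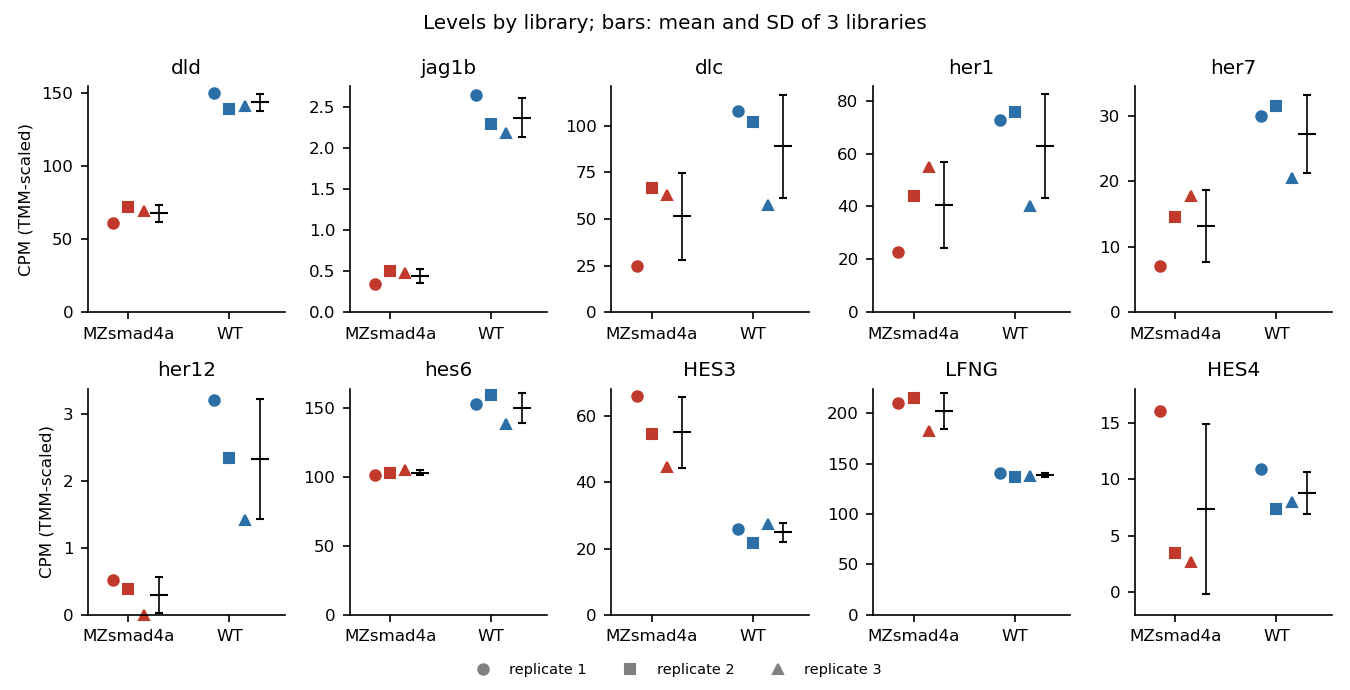
CPM in each library for 10 genes, with the mean and SD of 3 libraries drawn as a black bar beside each genotype and the replicate number given by the symbol (circle, square and triangle). dld, jag1b, her7, her12, hes6, HES3 and LFNG have no overlap between MZsmad4a (left) and WT (right), whereas dlc and her1 overlap through MZsmad4a replicates 2 and 3 and WT replicate 3, and HES4 spans the WT range within MZsmad4a.

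Of 4 tested receptors 0 were called, with 0 at an unadjusted p under 0.05 and 0 called by DESeq2. The most abundant, NOTCH1 (ENSDARG00000103554), had 482, 488 and 543 CPM in MZsmad4a libraries, against 587, 626 and 492 CPM in WT libraries, with overlap (log2 fold change -0.17, standard error 0.10, adjusted p = 0.455). NOTCH3 (ENSDARG00000052139) had 276, 222 and 248 CPM in MZsmad4a libraries, against 237, 225 and 174 CPM in WT libraries (log2 fold change 0.23, standard error 0.13, adjusted p = 0.433). notch2 and the second gene named NOTCH1 (ENSDARG00000052094) had log2 fold changes of -0.22 (adjusted p = 0.645) and -0.23 (adjusted p = 0.776). The receptor transcripts thus lay in overlapping ranges of counts in both genotypes.

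Per length, NOTCH1 (ENSDARG00000103554) behaved differently from its counts. It had 153, 126 and 138 TPM in MZsmad4a libraries, against 268, 204 and 191 TPM in WT libraries, without overlap (139 ± 13.4 TPM in MZsmad4a and 221 ± 41.3 TPM in WT, SD, n = 3 each). RSEM divides the counts of a gene by a mean transcript length that it weights by the estimated share of each transcript, here of 4 annotated transcripts. This length was 5258, 6645 and 6495 bases in MZsmad4a libraries, against 4257, 5418 and 4653 bases in WT libraries, a ratio of 1.28 between the means. Of 9364 tested genes with more than 1 transcript, 1.29% had a ratio as high or higher. With limma on log2(TPM + 1) the log2 fold change was -0.65 (adjusted p = 0.0793), so this difference did not pass the threshold either. The lengths of WT replicate 2 and MZsmad4a replicate 1 overlapped, and no file used here gives the counts of the single transcripts.

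**Figure D4:**
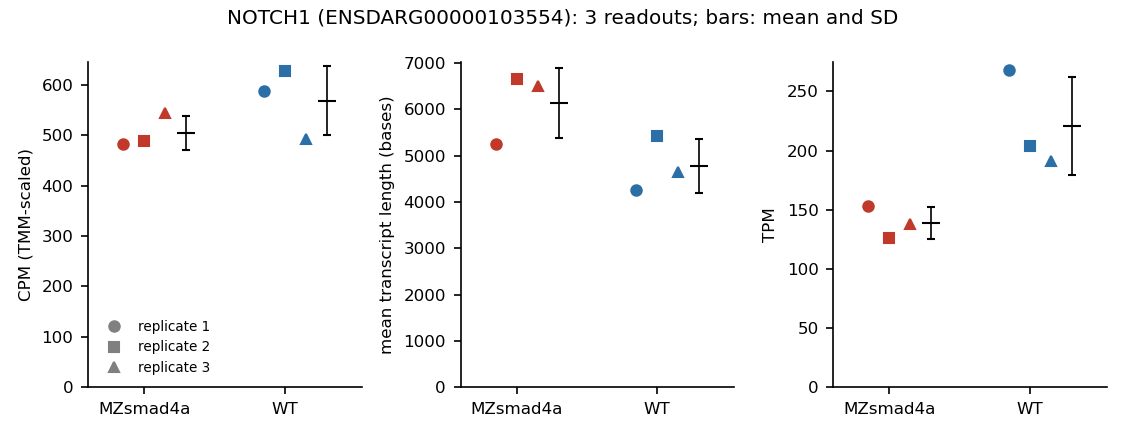
NOTCH1 (ENSDARG00000103554) in each library as CPM, as the mean transcript length in bases that RSEM estimated, and as TPM, with the mean and SD of 3 libraries drawn as black bars (MZsmad4a left, WT right). The genotypes overlap in CPM and in length and are apart in TPM, where the MZsmad4a libraries lie at 126 to 153 and the WT libraries at 191 to 268.

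The makeup of the receptor sum was read in TPM as well. NOTCH1 (ENSDARG00000103554) made up 70.5 ± 0.173% of the summed receptor TPM in MZsmad4a and 79.8 ± 1.56% in WT, and NOTCH3 made up 26.5 ± 0.314% in MZsmad4a and 17.5 ± 1.27% in WT (SD, n = 3 each). The shares of the libraries did not overlap, but they rest on the TPM of NOTCH1 and are no separate measure of NOTCH3.

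Of the genes that modify ligand or receptor, LFNG (ENSDARG00000037879) was the one whose libraries did not overlap. Lunatic fringe adds a sugar to Notch receptors and so changes which ligands they answer to. It had 210, 215 and 182 CPM in MZsmad4a libraries, against 141, 137 and 138 CPM in WT libraries (log2 fold change 0.54, standard error 0.09, adjusted p = 0.0202), and 119 ± 12.3 TPM in MZsmad4a and 89.2 ± 6.43 TPM in WT (SD, n = 3 each). All 3 mutant libraries were above all WT libraries, short of the 0.01 threshold. The call at 0.05 held in 1 of 6 fits with a library left out, that without MZsmad4a replicate 3 (adjusted p = 0.0278), and was otherwise lost, at 0.0539 to 0.0879. It was also lost with library size only (adjusted p = 0.0604) and with limma on log2(TPM + 1) (adjusted p = 0.133). MIB1, the ubiquitin ligase that makes ligands active by promoting their uptake, had 208, 170 and 154 CPM in MZsmad4a libraries, against 168, 178 and 145 CPM in WT libraries (log2 fold change 0.12, adjusted p = 0.712). NUMB, an adaptor that restrains Notch, had 25.1, 50.4 and 37.4 CPM in MZsmad4a libraries, against 37.0, 24.8 and 24.9 CPM in WT libraries (log2 fold change 0.39, adjusted p = 0.523). Both overlapped between genotypes.

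The table of symbols gives the name RBPJ to 2 identifiers without the letter that tells the zebrafish copies apart. The abundant one (ENSDARG00000003398) had 98.7, 106 and 106 CPM in MZsmad4a libraries, against 85.0, 86.1 and 96.8 CPM in WT libraries. The gap was small and the groups did not overlap (log2 fold change 0.22, standard error 0.10, adjusted p = 0.292). The other (ENSDARG00000052091) had 3.40, 5.14 and 3.21 CPM in MZsmad4a libraries, against 5.47, 5.30 and 4.2 CPM in WT libraries, with overlap (log2 fold change -0.35, adjusted p = 0.566).

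The Hairy-related genes had fold changes on both sides of 0. Of 26 genes 13 were tested, 8 with a log2 fold change below 0 and 5 above it, and 0 were called at 0.01. At an unadjusted p under 0.05 there were 7, against 17.5% of all tested genes. DESeq2 called 3, against 4.13% of all tested genes. Among the 7 were her12, her2 and her15.2, which passed the count filter through WT libraries only, and her12 was also among the 3. Without her12, her2 and her15.2, 5 were below 0 and 5 above it, with a median of -0.03, against -0.01 over all tested genes. The most abundant was hes6 (ENSDARG00000019335), which in zebrafish encodes a steadily expressed partner of the oscillating clock proteins. It had 101, 103 and 105 CPM in MZsmad4a libraries, against 153, 159 and 138 CPM in WT libraries (log2 fold change -0.54, standard error 0.09, adjusted p = 0.0198). The second gene by level, HES3 (ENSDARG00000076857), had 66.1, 54.6 and 44.7 CPM in MZsmad4a libraries, against 25.9, 21.8 and 27.3 CPM in WT libraries (log2 fold change 1.14, standard error 0.17, adjusted p = 0.0143). Neither overlapped between genotypes and neither passed 0.01 in edgeR, whereas DESeq2 gave adjusted p = 0.000511 for hes6 and 3.07e-07 for HES3. With a library left out, the call of hes6 at 0.05 held in 1 of 6 fits, that without WT replicate 3 (adjusted p = 0.0275), and was otherwise lost, at 0.0540 to 0.0870. The call of HES3 at 0.05 held in 4 of 6 and was lost without MZsmad4a replicate 2 (adjusted p = 0.0548) and without WT replicate 2 (adjusted p = 0.0604).

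Per length the levels of these 2 genes lay closer to each other in MZsmad4a than in WT. hes6 had 168 ± 5.71 TPM in MZsmad4a and 260 ± 19.2 TPM in WT, and HES3 had 130 ± 25.2 TPM in MZsmad4a and 62.9 ± 8.93 TPM in WT (SD, n = 3 each). Of the summed TPM of the 26 Hairy-related genes, HES3 held 27.1 ± 4.76% in MZsmad4a and 11.3 ± 2.49% in WT, and hes6 held 35.2 ± 2.0% in MZsmad4a and 46.2 ± 2.28% in WT (SD, n = 3 each). The shares of both genes were without overlap between the genotypes. The sum over the 26 genes was 482, 490 and 462 TPM in MZsmad4a libraries, against 624, 581 and 491 TPM in WT libraries. In CPM the same sum was 335, 339 and 336 in MZsmad4a libraries, against 399, 418 and 320 in WT libraries, with overlap.

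her1 (ENSDARG00000014722) and her7 (ENSDARG00000017917) are neighbouring genes that encode the core oscillating repressors of the zebrafish segmentation clock. her7 had 7.10, 14.6 and 17.8 CPM in MZsmad4a libraries, against 30.0, 31.5 and 20.5 CPM in WT libraries, without overlap (log2 fold change -1.05, standard error 0.33, adjusted p = 0.147). her1 had 22.9, 44.0 and 55.0 CPM in MZsmad4a libraries, against 72.7, 75.8 and 40.1 CPM in WT libraries, with overlap (log2 fold change -0.63, standard error 0.34, adjusted p = 0.398). As with dlc, the lowest mutant library of both genes was replicate 1 and the lowest WT library was replicate 3. Without MZsmad4a replicate 1 the log2 fold changes were -0.75 for her7 and -0.34 for her1, and without WT replicate 3 they were -1.22 and -0.87, in neither case past a threshold.

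Further tandem groups of her genes had few counts, and most of these were in WT. her12 (ENSDARG00000032963), which lies next to the her4 copies, had 0.519, 0.387 and 0 CPM in MZsmad4a libraries, against 3.21, 2.34 and 1.42 CPM in WT libraries, or 9, 7 and 0 counts in MZsmad4a and 34, 49 and 26 counts in WT (log2 fold change -2.92, standard error 0.76, adjusted p = 0.0943). DESeq2 gave adjusted p = 0.00441 for her12. her15.2 (ENSDARG00000054560) had 0.173, 0.221 and 0 CPM in MZsmad4a libraries, against 1.13, 1.48 and 0.546 CPM in WT libraries (log2 fold change -2.96, standard error 0.77, adjusted p = 0.0939). her2 (ENSDARG00000038205), next to the her15 copies, had 0.173, 0.166 and 0.421 CPM in MZsmad4a libraries, against 1.41, 0.764 and 0.546 CPM in WT libraries (log2 fold change -1.75, standard error 0.58, adjusted p = 0.17). All 3 genes were without overlap, but they rested on at most 9 counts in any mutant library. They were also above the level of the count filter in WT libraries only. They could thus be tested only by being higher in WT, and their values are given as a description.

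Copies of a tandem group are alike in sequence and share reads, which RSEM divides by estimate, so single copies are uncertain and sums are given beside them. her12 and the 5 her4 copies together had 10, 10 and 0 counts in MZsmad4a libraries, against 44, 73 and 28 counts in WT libraries. her2, her15.1 and her15.2 together had 9, 7 and 11 counts in MZsmad4a libraries, against 38, 66 and 28 counts in WT libraries. Both sums were lower in each mutant library than in each WT library, and the mutant libraries were all deeper than WT replicate 1. However, her12 held 34, 49 and 26 of the WT counts of the first sum. Of the second sum her2 held 15, 16 and 10 WT counts and her15.2 held 12, 31 and 10. These genes were above the level of the count filter in WT libraries only, so the sums are no separate support for them. The her15 copies alone had 6, 4 and 3 counts in MZsmad4a and 23, 50 and 18 counts in WT. The her4 copies alone had 1, 3 and 0 counts in MZsmad4a and 10, 24 and 2 counts in WT, with overlap. her4 and her15 genes are known in zebrafish as Notch targets of the neural plate.

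By contrast her11 and her5, a neighbouring pair known in zebrafish from the border of midbrain and hindbrain, overlapped between genotypes, with 187, 132 and 147 counts in MZsmad4a and 80, 171 and 119 counts in WT for both together. Their log2 fold changes were 0.23 (adjusted p = 0.694) for her11 and 0.19 (adjusted p = 0.795) for her5. her8a had 70.6, 69.2 and 69.4 CPM in MZsmad4a libraries, against 52.6, 63.5 and 43.1 CPM in WT libraries, without overlap (log2 fold change 0.39, standard error 0.15, adjusted p = 0.218). Of the remaining tested genes, hey1 (log2 fold change -0.46, adjusted p = 0.371) and HES1 (ENSDARG00000006514; log2 fold change 0.22, adjusted p = 0.617) overlapped.

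HES4 (ENSDARG00000056438), singled out after its values were seen, depended on a single library. It had 16.0, 3.48 and 2.63 CPM in MZsmad4a libraries, against 10.9, 7.40 and 7.97 CPM in WT libraries, or 277, 63 and 50 counts in MZsmad4a and 116, 155 and 146 counts in WT. MZsmad4a replicate 1 was above all WT libraries and the other mutant libraries were below all of them. On the log2 scale its change was -0.25 (adjusted p = 0.883) with all libraries and -1.51 (adjusted p = 0.0446) without MZsmad4a replicate 1.

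MZsmad4a replicate 1 was thus the mutant library with the lowest her1, her7 and dlc and the highest HES4, HES3 and dla. The mesoderm gene tbx16 was also lowest there, with 289, 376 and 435 CPM in MZsmad4a libraries, against 531, 606 and 557 CPM in WT libraries. The head gene OTX2 (ENSDARG00000011235) was highest there, with 35.1, 18.9 and 8.99 CPM in MZsmad4a libraries, against 10.3, 5.30 and 6.17 CPM in WT libraries. Other mesoderm and neural genes went the other way. The mesoderm gene tbx6 was highest in MZsmad4a replicate 1 (8.48, 6.79 and 3.89 CPM in MZsmad4a libraries). The neural gene SOX3 was lowest there (202, 273 and 308 CPM). These genes were named after their values were seen, and the part of this library in the results of her1, her7, dlc and HES4 is given by the values without it above.

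The 7 lists of other Notch pathway genes, with 70 genes of which 64 were tested, held 0 genes past 0.01 and 0 past 0.05 in edgeR and 0 past 0.01 in DESeq2. At an unadjusted p under 0.05 there were 9 of the 64, against 17.5% of all tested genes. Their median log2 fold change was close to 0, as was that of all tested genes. The median was 0.05 for ligand handling (6 tested), -0.01 for the proteases that cleave the receptor (8 tested), 0.02 for receptor trafficking (11 tested), 0.10 for the nuclear complex (17 tested), -0.25 for Groucho corepressors (9 tested) and 0.14 for feedback genes (5 tested). The list that stood lowest was receptor maturation, the enzymes that fold, cut and glycosylate Notch on its way to the cell surface. All 8 tested genes of that list had a log2 fold change below 0, against 51.0% of all tested genes, with a median of -0.42. The list was singled out from the 7 by these values. Its sum was 97.3, 101 and 108 CPM in MZsmad4a libraries, against 132, 140 and 130 CPM in WT libraries. Its lowest adjusted p was 0.0948, for pofut1, the enzyme that puts the fucose on which lunatic fringe acts (32.7, 40.1 and 39.6 CPM in MZsmad4a libraries, against 54.0, 49.1 and 53.3 CPM in WT libraries), and for gxylt1b.

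Among the feedback genes NRARP, a Notch target that limits the signal, is annotated to 2 identifiers. One (ENSDARG00000091419) had 187, 136 and 150 CPM in MZsmad4a libraries, against 231, 244 and 213 CPM in WT libraries, without overlap (log2 fold change -0.54, standard error 0.13, adjusted p = 0.0687). The other (ENSDARG00000018958) was at 0.16 on the log2 scale (adjusted p = 0.72). A list of 16 genes of early neurons was not tested, because none had more than 23 counts in any library.

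**Figure D5:**
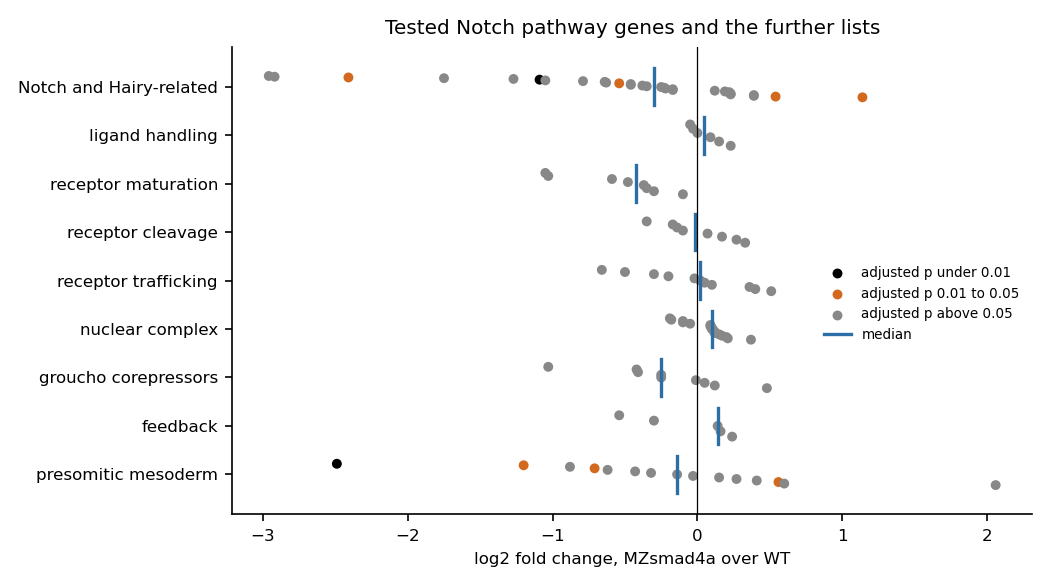
Log2 fold change of MZsmad4a over WT for each tested gene of the Notch and Hairy-related group, of 7 further Notch pathway lists and of the presomitic mesoderm list, with the median of each list as a blue line; points are spread vertically for legibility. The receptor maturation genes all lie left of 0, and tbx16l of the presomitic mesoderm list is, with dld, the gene past 0.01.

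Several ligands and her genes of the group are known from the presomitic mesoderm, so a list of other genes of that tissue was read beside them. Of 17 genes 15 were tested and 1 was called at 0.01, tbx16l (ENSDARG00000006939), a T-box factor of the presomitic mesoderm, at -2.49 on the log2 scale (adjusted p = 0.000445). At 0.05 msgn1 (log2 fold change -1.20, adjusted p = 0.0105) and mespab (-0.71, adjusted p = 0.0213) were lower, and a WNT8A gene was higher (0.56, adjusted p = 0.0425). The study, which used a threshold of 0.01, reports the paraxial markers tbx16, mespaa and mespab as unaffected. At 0.01 none of them was called here either. Over all tested genes 0.712% were called at 0.01 and 2.93% at 0.05. At an unadjusted p under 0.05 the list had 7 genes, 4 lower and 3 higher, against 17.5% of all tested genes. DESeq2 called 5, 3 lower and 2 higher, against 4.13% of all tested genes. The sum of the list was 586 to 732 CPM in MZsmad4a libraries, against 933 to 1030 CPM in WT libraries, without overlap. Its median log2 fold change of -0.14 was nearer to 0 than its sum, since the sum is weighted to abundant genes such as tbx16.

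Markers of regions of the embryo also moved with the genotype. The 13 margin mesendoderm genes, all tested, summed to 1120 to 1440 CPM in MZsmad4a libraries, against 1620 to 1930 CPM in WT libraries. This sum is weighted to abundant genes such as tbx16 and tbxta, which the study reports as unaffected and as equivalent in total transcript level. The log2 fold change was below 0 for 9 of the 13 and above it for 4, and 0 were called at 0.01. At an unadjusted p under 0.05 there were 8, 7 lower and 1 higher, against 17.5% of all tested genes. DESeq2 called 2, against 4.13% of all tested genes. The 11 ventral genes summed to 398 to 446 CPM in MZsmad4a libraries, against 1020 to 1090 CPM in WT libraries. Of these 11, 9 were called lower at 0.01, against 0.49% of all tested genes. The study reports szl (sizzled), eve1, bmp4 and id3 of this list as BMP targets that were lower in these same libraries. It also reports gata2 and foxi1, as markers of ventral epidermis that BMP induces, as downregulated. The fall of these genes was therefore known beforehand and is no separate result about a region. The 12 neural ectoderm genes summed to 1930 to 2110 CPM in MZsmad4a libraries, against 1610 to 1730 CPM in WT libraries, with 0 of 11 tested called at 0.01. At an unadjusted p under 0.05 there were 7, 6 higher and 1 lower, against 17.5% of all tested genes. DESeq2 called 5, 4 higher and 1 lower, against 4.13% of all tested genes. None of these markers was at 0 in all libraries. The part of these lists in the levels of dld, jag1b, hes6, HES3 and LFNG was not tested. The sums of the dorsal organizer, enveloping layer, germ cell and yolk syncytial layer markers overlapped between genotypes.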

How the data were processed

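Whole-embryo RNA was sequenced as paired-end mRNA libraries. According to the study's methods, the authors trimmed reads with cutadapt, aligned them with STAR to GRCz11 with Ensembl release 95, and estimated expression with RSEM. Demultiplexing used bcl2fastq 2.20.0 (submitters' processing notes). The authors deposited, for each of 32266 genes, the unnormalized RSEM expected count, the TPM (set by RSEM to an equal total per library) and a mean transcript length.

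Expected counts were rounded, and edgeR 4.0.16 (R 4.3.3) tested genotype alone with glmQLFit and glmQLFTest after filterByExpr and TMM, at a Benjamini-Hochberg adjusted p under 0.01 over 15720 genes. Standard errors were obtained as |log2 fold change| / sqrt(F). DESeq2 1.42.0 and limma 3.58.1 gave alternatives, and Python 3.11.15, numpy 2.4.6, pandas 2.3.3 and matplotlib 3.10.9 the summaries and figures. The fits were tested on simulated data. Library pairs of 1 genotype differed by far more than sampling noise. The study describes separate clutches, and the labels do not say which embryos a library holds beyond their number, so p-values measure the spread between these libraries.

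Symbols came from the study's supplementary table (13 of the 45 genes) or from a table of identifiers (32), and 26467 of 32266 identifiers had one. ENSDARG00000008785, which the latter calls DLD, was left out because that is also the symbol of a mitochondrial dehydrogenase and the study's table gives dld to ENSDARG00000020219. Both RBPJ identifiers were kept. Genes were named with values where they passed an adjusted p of 0.05, where the genotypes did not overlap and the log2 fold change was at least 0.5 in size, or where they were among the 10 with the highest mean TPM. The genes and lists were chosen with earlier results of these data known. Neighbouring genes were read from RefSeq gene order (GRCz12tu). Alternatives were DESeq2, a replicate block, RLE scaling, library size only, no filter, at least 10 counts in every library, truncated counts, limma on log2(TPM + 1) and log2(TPM + 0.1), an adjusted p under 0.05, and leaving out each library.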

Additional observations from a re-analysis of the deposited data

How the results depend on the processing

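Among the Notch pathway and Hairy-related genes, 1 was called lower and 0 higher at 0.01, against 77 lower and 35 higher of all tested genes. DESeq2 called 4 lower and 2 higher, against 343 and 315 of all genes it tested. The 4 lower include jag1b and her12, which passed the filter of the main fit through WT libraries only. Without a filter on low counts edgeR called 2 lower and 1 higher, against 167 and 116. With library size only, which moves the median of all genes by -0.11 (log2), 2 were called lower and 0 higher, against 105 and 24. The 2 lower were dld and jag1b in both of these settings, and the limit given above for jag1b holds here too. At an adjusted p under 0.05 there were 3 lower and 2 higher, against 263 and 198. With at least 10 counts in every library, 43 of all genes were lower and 21 higher. limma called 16 of all genes higher on log2(TPM + 1) and 18 on log2(TPM + 0.1), and on log2(TPM + 1) without a filter it called 0 members lower, with 26 of all genes lower and 11 higher.

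Leaving out each library in turn gave 0 to 1 members called lower, 16 to 47 of all genes lower and 8 to 29 higher. Whether the replicate numbers of the labels pair the libraries was not settled. The study's supplement describes batches of WT and mutant embryos, and the labels do not say which libraries share one. The correlations of same-numbered deviations were 0.108, -0.0319 and 0.14 for replicates 1, 2 and 3. Those of replicates 1 and 3 were the highest between any mutant and any WT library. MZsmad4a replicate 2, however, correlated best with WT replicate 1 (0.0816). With the replicate block 0 members were called lower, with 22 of all genes lower and 7 higher, and dld kept its log2 fold change of -1.09 (adjusted p = 0.0184).

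Of the genes named with values by the rule, all but MIB1 kept the sign of their fold change under the alternatives in which they could be fitted. MIB1, at 0.12, was -0.02 in each of the 3 limma fits on TPM and ranged from -0.01 to 0.21 when each library was left out, the lowest value being without MZsmad4a replicate 1. With limma on log2(TPM + 1) without a filter, dld had adjusted p = 0.0104. Calls at 0.01 were gained by jag1b (adjusted p = 0.000152 with DESeq2, 0.00582 without a filter and 0.00938 with library size only), HES3 (3.07e-07 with DESeq2 and 0.00264 without a filter), hes6 (0.000511), LFNG (0.000301) and her12 (0.00441), the last 3 with DESeq2. Calls at 0.05 were lost under the replicate block by hes6 (0.0631) and LFNG (0.0587), by LFNG also with library size only and in the 3 limma fits (0.133 to 0.161), and by HES3 in the limma fit without a filter (0.0558). The causes were not tested. Depth limits jag1b, jag2a and the low her genes, which rest on 49 counts at most in any library, and 3 libraries a genotype limit all of the comparisons. Bulk libraries cannot place a transcript in a cell type.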

Other observations

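OTX1 (ENSDARG00000094992), a head gene of the dorsal organizer marker list that was picked after its values were seen, was, like HES4 and HES3, highest in MZsmad4a replicate 1. It had 119, 75.3 and 43.0 CPM in MZsmad4a libraries, against 43.5, 36.2 and 33.0 CPM in WT libraries (log2 fold change 1.08, adjusted p = 0.137 in the edgeR fit). The study counts otx1 among the markers of the anterior neural plate and reports these as unchanged or slightly upregulated. By contrast lhx1a of the dorsal organizer list was lowest in MZsmad4a replicate 1, with 43.7, 82.8 and 83.1 CPM in MZsmad4a libraries. otx2a (ENSDARG00000030703) had 121, 108 and 91.1 CPM in MZsmad4a libraries, against 53.4, 62.8 and 52.6 CPM in WT libraries, with each mutant library above each WT library (log2 fold change 0.92, adjusted p = 0.0123 in the same fit).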
